A study of Mus musculus with 22 samples.

Results

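The cells described here had few hemoglobin transcripts and carried the receptor transcripts Epor or Csf2rb. They were chosen from all 22 count tables by 4 limits: a total of 50 or more counts in the segmented cell, Epor plus Csf2rb at 3 or more counts and at least 8 per 1000 of the cell's counts, Hbb plus Hba-a1/2 under 10% of its counts, and fewer than 3 counts of the endothelial cadherin Cdh5. Of 37575 segmented cells, 131 met the rule, and they are called Epor/Csf2rb cells below. The working label for them was hematopoietic cells, and the marker lists given below did not bear this out for all of them, so they are named by the rule.

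The sections spanned the aorta-gonad-mesonephros region, where the dorsal aorta gives rise to blood stem cells, of 2 mouse embryos at embryonic day 10 (E10), 1 labelled Knockout (Nr4a1-/-Nr4a2-/-, 13 sections) and 1 labelled Wildtype (Nr4a1+/+Nr4a2+/+, 9 sections). They were imaged with CosMx, in which barcoded probes count single transcripts in place and the image is then divided into cells. Both lines are constitutive, with no Cre or transgene, and the controls carry neither deletion. Since each genotype was 1 embryo, sections are repeats within an animal, and a p-value over sections or slides measures the spread within an embryo and is too small for a statement on genotype. Each embryo filled 2 slides of its own, so that embryo, slide and genotype cannot be told apart, and the study's figure legend and the labels give different numbers of sections for the genotypes.

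The tables held 998 genes, with 169038 to 887904 counts per section and a median of 87 to 332 counts per cell. No cell name occurred in more than 1 section of a slide. The targeted genes did not check the labels: in the other hemoglobin-low cells Nr4a1 was at 0.225 per 1000 counts in Knockout sections and 0.286 in Wildtype sections, and Nr4a2 at 0.419 and 0.491. Nr4a3, which was not targeted, was at 0.375 and 0.509. These are low levels, at which a loss could go unseen. In 5 Wildtype sections, 787 of 993 genes lay under 1 per 1000 in the other hemoglobin-low cells. The T cell gene Cd3e had a count in 11.2% of such cells over all sections. Where the Nr4a probes lie relative to the deleted parts is not given in the sources used here, so Knockout and Wildtype stand below for the libraries so labelled.

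Epor is the receptor for erythropoietin, the hormone that keeps erythroid progenitors alive and dividing. Csf2rb is the beta common chain shared by the receptors for interleukin 3, GM-CSF and interleukin 5, which act on myeloid and multipotent progenitors. Both signal through the kinase Jak2 and the transcription factors Stat5a and Stat5b. At mid-gestation the embryo holds circulating primitive erythroid cells loaded with embryonic hemoglobin, and the first blood stem cells of the embryo bud from the wall of the dorsal aorta.

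Epor lies on chromosome 9 from 21958897 to 21963576 and Csf2rb on chromosome 15 from 78325800 to 78351001 in GRCm38.p6. The promoter windows below (RefSeq, GRCm38.p6, 250 bases before to 50 bases after the start of the gene, 5′ to 3′) are shown because Epor defines the cells and Mt2 rose most in them in the comparison of 5 Wildtype sections (summed over all slides, Aqp3 rose by 1.08 and Mt2 by 1.04 on the log2 scale). Of 8 genes looked for, 7 had a window. Epor spans chr9:21963527-21963826 on the minus strand and Mt2 spans chr8:94172368-94172667 on the plus strand. Capitals mark AGATAA, a sequence bound by GATA factors, and CACCC, a sequence bound by KLF factors, each on either strand (the other strand reads TTATCT and GGGTG); none of the marked sites overlapped.
Epor: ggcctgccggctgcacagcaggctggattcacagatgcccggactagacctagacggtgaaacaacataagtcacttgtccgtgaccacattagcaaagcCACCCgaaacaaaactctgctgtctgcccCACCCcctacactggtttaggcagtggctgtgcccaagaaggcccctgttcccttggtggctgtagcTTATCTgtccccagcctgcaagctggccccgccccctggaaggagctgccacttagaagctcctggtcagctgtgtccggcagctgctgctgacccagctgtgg
Mt2: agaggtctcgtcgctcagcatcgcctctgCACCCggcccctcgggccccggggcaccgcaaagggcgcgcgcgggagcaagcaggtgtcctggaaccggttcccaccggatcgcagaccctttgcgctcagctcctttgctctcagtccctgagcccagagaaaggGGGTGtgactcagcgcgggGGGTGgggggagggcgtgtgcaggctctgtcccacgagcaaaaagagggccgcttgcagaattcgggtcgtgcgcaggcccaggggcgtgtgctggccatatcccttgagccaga
The Epor window held 1 AGATAA and 2 CACCC matches. The Mt2 window held 3 CACCC matches and no AGATAA. Of 32851 mouse promoter windows of this length, 11.2% held AGATAA and 57.5% held CACCC, so the second is a common sequence. A match is a description of the letters alone.

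Epor/Csf2rb cells were rare in both embryos. Knockout sections held 42 of them among 17014 cells of 50 or more counts, 0.247% (95% Wilson interval 0.183 to 0.333). Wildtype sections held 89 among 13339, 0.667% (0.543 to 0.820). In single sections the Knockout embryo had from 1 to 6 (3.23 ± 1.54, SD, n = 13 sections) and the Wildtype embryo from 3 to 14 (9.89 ± 4.01, n = 9 sections), so the 2 ranges overlapped between 3 and 6 cells. Intervals on shares and rates cover counting error alone. As the rule used the receptor counts, these numbers are a description, with no test. The cells left after the rule are a description too: Epor plus Csf2rb came to 0.571 ± 0.0587 per 1000 counts (SD, n = 13) in the other hemoglobin-low cells of Knockout sections and to 0.842 ± 0.166 (n = 9) in those of Wildtype sections. Here and below, a rate of a gene or list per 1000 is over the counts of the 993 genes that the rule did not use, while the receptor limit of the rule and the cells near it are given per 1000 of all counts of the cell.

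The rule selected on few molecules. In 58 of the 131 cells the receptors summed to exactly 3 counts, in 29 to 4, in 16 to 5 and in 28 to 6 or more, with a maximum of 12. Both receptors were seen in 77 cells, Epor alone in 28 and Csf2rb alone in 26. Epor was the higher of the pair in 62 cells, Csf2rb in 61, and 8 were tied. Just inside the limit on the share, 25 cells had 8 to under 9 receptor counts per 1000, and just outside it 48 cells had 7 to under 8. Another 157 cells passed the share with only 2 counts. At the hemoglobin limit, 29 cells lay at 8% to under 10% and 23 cells that passed every other limit at 10% to under 12%. For Cdh5, 93 cells had 0 counts, 28 had 1 and 10 had 2, and 3 cells that passed every other limit had 3 counts. The cells held 119 to 931 counts (median 348), against a median of 253 in the 26814 other hemoglobin-low cells, and 84 to 446 genes were seen in each.

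**Figure D1:**
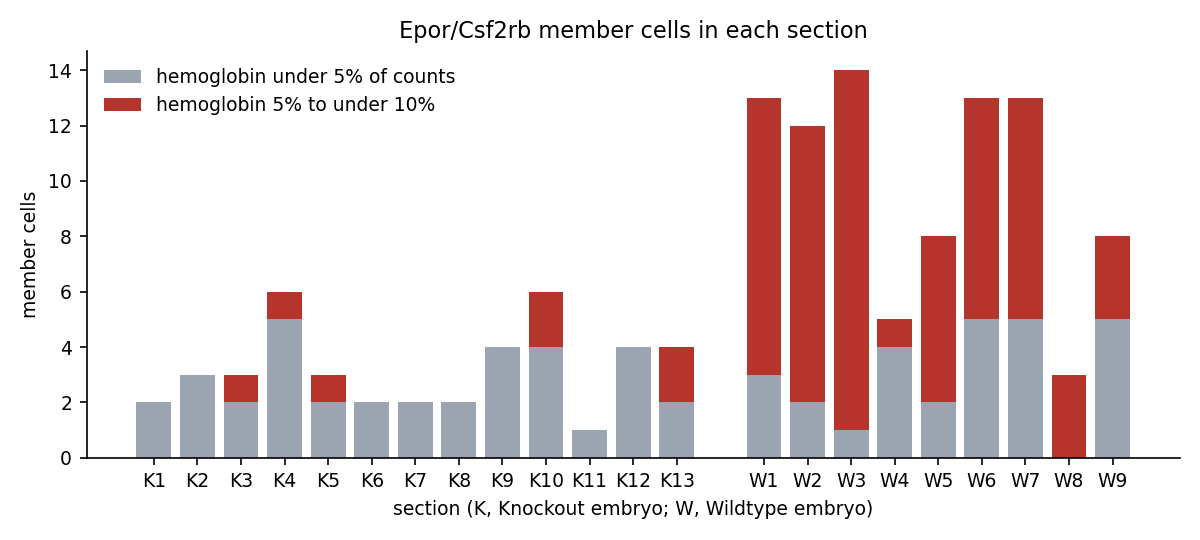
Number of Epor/Csf2rb cells in each section (y axis) of the Knockout (K1 to K13) and Wildtype (W1 to W9) embryos, with grey for cells under 5% hemoglobin and red for cells at 5% to under 10%. Most cells of the Knockout embryo (35 of 42) are grey and most of the Wildtype embryo (62 of 89) are red.

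Hemoglobin divided the cells into a pair of sets. Among the 131 cells, 50 had under 1% hemoglobin and 69 had 5% to under 10%, with only 12 between. The 2 embryos filled these sets unequally: 35 of 42 Knockout cells lay under 5% (83.3%, Wilson 69.4 to 91.7) and 27 of 89 Wildtype cells (30.3%, 21.8 to 40.5). The number of cells under 5% per section was 2.69 ± 1.18 (SD, n = 13) in the Knockout embryo and 3 ± 1.87 (n = 9) in the Wildtype embryo. The number at 5% to under 10% was 0.538 ± 0.776 (0 to 2 per section) and 6.89 ± 3.95 (1 to 13 per section). The embryos thus differed mostly in the number of cells with more hemoglobin, and the cells under 5% were about as frequent per section in both. All cells under 3 counts of Cdh5 were tilted the same way. Of these, 242 Knockout and 826 Wildtype cells lay at 5% to under 10%, and 13271 and 8909 lay under 1%. The receptor limits were met by 2.89% and 7.51% in the first range and by 0.234% and 0.213% in the second.

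**Figure D2:**
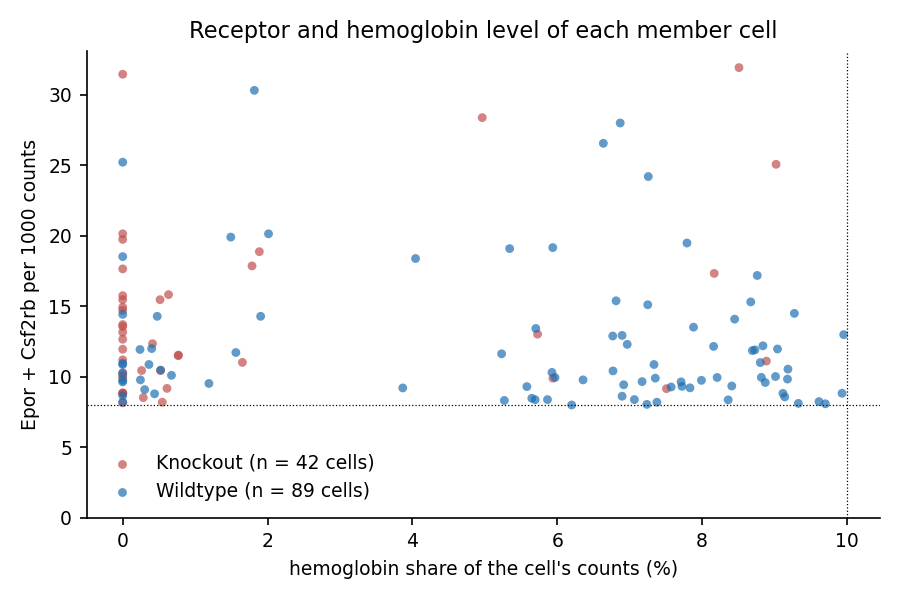
Each point is 1 Epor/Csf2rb cell, with the hemoglobin share of its counts in percent on the x axis and Epor plus Csf2rb per 1000 of its counts on the y axis; dotted lines are the limits of the rule. The points gather under 1% and above 5% hemoglobin, with 12 cells between.

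Cells under 5% hemoglobin were often at the minimum of the rule: 40 of 62 had exactly 3 receptor counts, against 18 of 69 at 5% to under 10%. Their receptor counts were mostly Epor (137 of Epor and 80 of Csf2rb), while those of the cells at 5% to under 10% were mostly Csf2rb (141 and 219). Both receptors were seen together in 27 of 62 and in 50 of 69 cells. The sets differed in depth, with a median total of 273 counts per cell under 5% and 402 at 5% to under 10%. As the rule also set a least share of receptor counts, a cell of 402 counts could not pass with exactly 3. Cells with more receptor counts also have more chances to show both receptors. Whether the contrasts in exactly 3 counts and in both receptors hold at equal depth was not tested.

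The same limits on the receptors, applied to all cells under 3 counts of Cdh5, were met by 0.225% of 22180 cells with under 1% hemoglobin (Wilson 0.171 to 0.297) and by 0.337% of 2377 cells at 1% to under 2%. They were met by 0.303% of 1320 cells at 2% to under 5% and by 6.46% of 1068 cells at 5% to under 10% (5.14 to 8.10). Above the hemoglobin limit they were met by 9.44% of 858 cells at 10% to under 20% and by 4.65% of 731 cells at 20% or more. By embryo these shares were 6.44% in Knockout and 11.3% in Wildtype sections at 10% to under 20%, and 5.18% (33 cells) and 1.06% (1 cell) at 20% or more. The receptors thus marked cells on both sides of the 10% limit, 131 below it and 115 above it.

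Taken over all cells and not only those that passed, Epor rose from 0.293 per 1000 counts under 1% hemoglobin to 1.53 at 5% to under 10% and 2.23 at 20% or more. Csf2rb went from 0.320 to 1.56 and 2.07 in the same ranges. The embryos filled the ranges unequally, and within the Wildtype embryo Epor was at 2.29 at 10% to under 20% and 1.96 at 20% or more, and Csf2rb at 2.28 and 1.75. Within 5% to under 10% hemoglobin, Epor was at 0.992 per 1000 (95% Poisson interval 0.772 to 1.26) in Knockout sections and 1.67 (1.52 to 1.83) in Wildtype sections, and Csf2rb at 1.15 (0.912 to 1.43) and 1.66 (1.51 to 1.82). At 20% or more the order turned, with overlapping intervals: Epor was at 2.25 (2.02 to 2.51) in Knockout and 1.96 (1.30 to 2.83) in Wildtype sections, and Csf2rb at 2.10 (1.88 to 2.35) and 1.75 (1.13 to 2.58). Knockout sections had 242 cells in that range and Wildtype sections 826, while cells at 20% or more numbered 637 and 94.

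**Figure D3:**
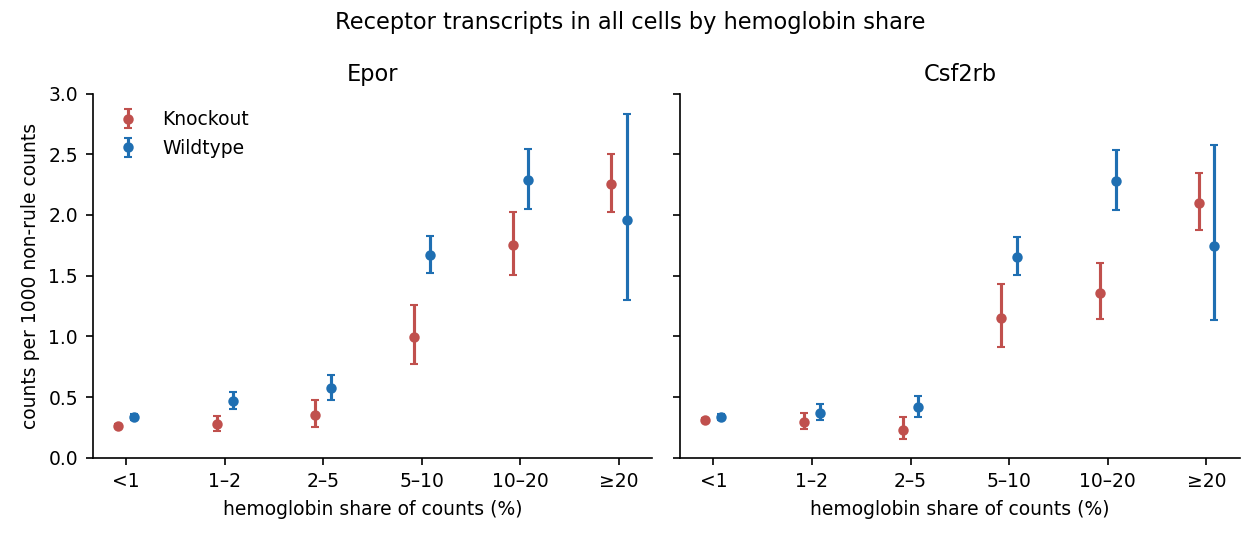
Epor (left) and Csf2rb (right) counts per 1000 counts of the genes not used by the rule (y axis) in all cells under 3 counts of Cdh5, by hemoglobin share in percent (x axis), with 95% Poisson intervals over pooled cells of each embryo. Both receptors are under 0.6 below 5% hemoglobin and about 1 or more from 5% upward.

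To ask what else these cells expressed, their counts were summed per section and compared with the other hemoglobin-low cells of the same section by edgeR's quasi-likelihood test, with the section as a block and the 5 genes of the rule left out. Only 5 sections, all Wildtype, held 10 or more Epor/Csf2rb cells (65 cells), and they form the comparison. Of 993 genes tested, 60 passed at an adjusted p under 0.05 (6.04% of genes), 7 of them higher (0.705%) and 53 lower (5.34%). In 4 of the 7 and 37 of the 53 the values of the 5 sections did not overlap between the pair of classes. As these genes were called on the same 5 sections, the non-overlap is a description and no separate support. It was not counted over all genes. Fold changes below are on the log2 scale with their SE and the Benjamini-Hochberg adjusted p of edgeR, and rates are means ± SD over the 5 sections.

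The metallothioneins Mt1 and Mt2, small proteins that bind zinc and other metals, rose together. In sections 1, 2, 3, 6 and 7 of the Wildtype embryo Mt2 stood at 4.88, 2.89, 2.66, 3.90 and 6.11 per 1000 counts in Epor/Csf2rb cells and at 1.01, 1.21, 1.23, 1.23 and 1.26 in the other cells. Every section of the first set lay above every section of the second, and the difference was 1.54 ± 0.24 (adjusted p = 4.2e-09). Mt1 stood at 1.91, 1.86, 2.66, 1.30 and 2.49 against 0.766, 0.972, 1.19, 0.890 and 0.981, again with no overlap (0.89 ± 0.28, adjusted p = 0.0276). Aqp3, a channel for water and glycerol, was at 1.89 ± 0.42 against 0.854 ± 0.187 per 1000 (0.95 ± 0.29, adjusted p = 0.0225).

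The other genes that rose were of mixed kinds. Adgrg3, a receptor known from granulocytes, was at 2.15 ± 0.54 against 0.956 ± 0.115 per 1000 (0.97 ± 0.28, adjusted p = 0.0106). Mpo, the peroxidase of myeloid granules, was at 1.36 ± 0.54 against 0.567 ± 0.0545 (1.05 ± 0.35, adjusted p = 0.0491), with the value of section 6, 0.434, below those of the other cells. Tyk2, a kinase of cytokine receptors, was at 1.93 ± 0.76 against 0.930 ± 0.093 (0.84 ± 0.28, adjusted p = 0.0491), with section 1 below the other cells at 0.636. Krt14, a keratin of basal epithelium, was at 1.73 ± 0.89 against 0.766 ± 0.061 (0.96 ± 0.31, adjusted p = 0.034). Of the 7, Mt2 (-0.02), Adgrg3 (-0.12), Mpo (-0.53) and Krt14 (-1.02) had a change below 0 in the Knockout embryo alone, which held few of these cells. The number that rose depended on single sections and on scaling: it was 3 without section 1, 2 without section 3, 4 without section 7, and 21 (with 34 lower) when library size alone set the scale. That scaling moved the median change of all genes from 0.00 to 0.21.

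The genes that fell included growth factor, matrix and general genes. Igfbp5, a binding protein of insulin-like growth factors, fell most (0.518 ± 0.436 against 2.81 ± 0.38 per 1000, log2 change -2.63 ± 0.36, adjusted p = 3.35e-11). Serpinh1, the chaperone of collagen folding, stood at 3.61, 1.44, 2.19, 1.95 and 8.14 per 1000 in the 5 sections against 11.5 to 14 (-2.21 ± 0.18, adjusted p = 2.79e-29). Igf2, a growth factor abundant in embryonic mesoderm, stood at 4.03, 5.98, 0.313, 3.90 and 5.65 against 15.9, 15.2, 16.6, 15.9 and 18.5 (-2.36 ± 0.40, adjusted p = 0.0122). The call for Igf2 was lost, with a fold of similar size, with library size alone (adjusted p = 0.0978), without section 6 (0.0823), without section 7 (0.21) and on slide 1 alone (0.53). No section overlapped in Igfbp5, Serpinh1 or Igf2.

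Of 11 mesenchyme genes, 5 fell and none rose, with a median change of -0.73 beside 0.00 for all genes. These were Col3a1 (-2.27 ± 0.43) and Col1a1 (-1.92 ± 0.26), both fibrillar collagens, and the transcription factors Twist1 (-2.01 ± 0.26), Twist2 and Foxc1 (-1.19 ± 0.33, and 0.28 in the Knockout embryo alone). The call for Foxc1 was lost without section 3 (adjusted p = 0.0683) and with all cells summed per slide (-0.37, adjusted p = 0.531). By slide, 4 of the 11 genes fell. Summed over the list, the 5 sections ranged from 8.44 to 12.4 per 1000 in Epor/Csf2rb cells and from 18.1 to 22.3 in the other cells. Of 8 smooth muscle genes, 3 fell: the tropomyosins Tpm1 and Tpm2 and the actin-binding Cald1, while Acta2, the smooth muscle actin, was at 1.06 ± 0.30 against 1.31 ± 0.36 (adjusted p = 0.513). Outside the lists, the basement membrane collagens Col4a1 (-2.14 ± 0.27) and Col4a2 (-2.22 ± 0.36), the matrix protein Sparc (-2.05 ± 0.34), the cadherin Cdh11 (-2.58 ± 0.53) and the noncoding RNA Meg3 (-2.25 ± 0.23) fell as well. The call for Cdh11 was lost on slide 2 alone (adjusted p = 0.328) and with all cells summed per slide (-1.26, adjusted p = 0.0673). In the Knockout embryo alone Cdh11 was at -0.0027.

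Genes of high level fell more often than genes of low level. Hsp90ab1, a chaperone, went from 14.1 ± 2.0 to 7.18 ± 1.60 per 1000 (-1.17 ± 0.16, adjusted p = 7e-12), and the calmodulin gene Calm2 from 5.22 ± 0.46 to 2.02 ± 0.45 (-1.60 ± 0.23, adjusted p = 1.93e-10). Of the 21 genes at 5 or more per 1000 in the other cells, 18 fell and none had a positive change, and their median change was -1.12. Of the 787 genes under 1 per 1000, 1 fell and 6 rose, with a median of 0.09. As rates share a total, the fall of abundant genes and the level of the rest are not separate measurements. The number called also depends on level. The Epor/Csf2rb cells held only 4421 to 6396 counts per section, so a fall of a low gene is harder to call. Over genes of all levels, 36% of simulated 2-fold falls were called.

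**Figure D4:**
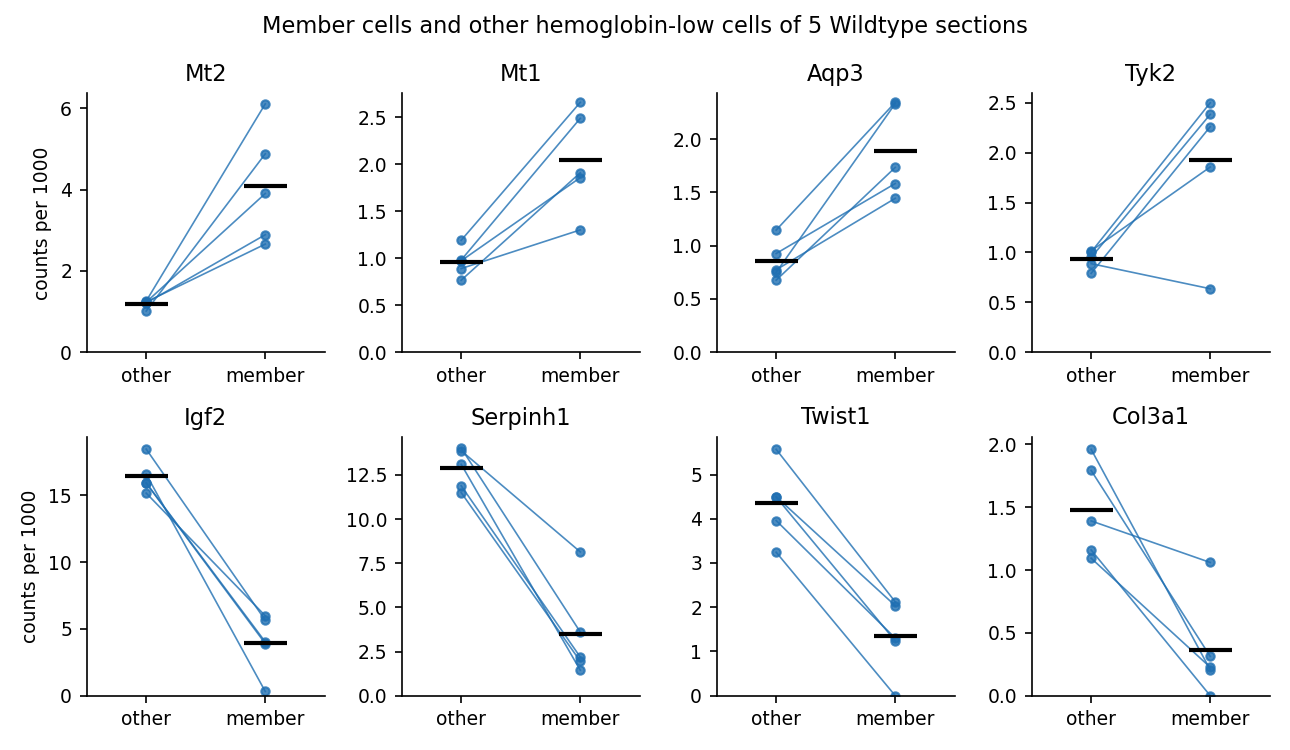
Counts per 1000 counts of the genes not used by the rule (y axis) for 8 genes in the other hemoglobin-low cells and in the Epor/Csf2rb cells of the 5 Wildtype sections with 10 or more of the latter; each line is a section and the black bars are means. Mt2, Mt1 and Aqp3 are higher in every section, Tyk2 in 4 of 5, and Igf2, Serpinh1, Twist1 and Col3a1 are lower in every section.

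No gene below the receptors passed the test. Of 11 genes of erythropoietin and beta common receptor signalling, none was called, and their median change was -0.01. Jak2 was at 0.718 ± 0.452 against 0.520 ± 0.065 per 1000, Stat5a at 0.968 ± 0.281 against 0.766 ± 0.076, and Stat5b at 1.00 ± 0.29 against 0.939 ± 0.085. Bcl2l1, the survival gene that erythropoietin is known to induce, was at 1.17 ± 0.62 against 0.863 ± 0.122 (adjusted p = 0.833).

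No stem and progenitor or pan-leukocyte gene passed. Of 10 stem and progenitor genes 9 were in the tables, and none passed (median change -0.02). Runx1, the transcription factor needed for blood cells to emerge from endothelium, ranged from 0 to 1.48 per 1000 in the 5 sections (0.686 ± 0.556) against 0.473 to 0.676 (0.555 ± 0.087), and these ranges overlapped (0.09 ± 0.45, adjusted p = 0.959). Kit, the stem cell factor receptor, was at 0.751 ± 0.427 against 0.507 ± 0.034 (0.36 ± 0.46, adjusted p = 0.82), and Gata2, a factor of early progenitors, at 1.03 ± 0.29 against 0.623 ± 0.042 (0.53 ± 0.38, adjusted p = 0.58). Ptprc, which encodes the leukocyte marker CD45, was at 0.488 ± 0.441 against 0.420 ± 0.057 (-0.05 ± 0.55, adjusted p = 0.979). Over genes of all levels, 42% of simulated 2-fold rises were recovered at this depth. The share for genes as low as these was not taken apart, so that a change of this size in them could have been missed.

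Over all 131 cells, Kit had a count in 22 (16.8%), Runx1 in 24 (18.3%) and Ptprc in 17 (13.0%), and in the other hemoglobin-low cells the shares were 10.2%, 11.2% and 9.00% at a lower depth per cell. None of these genes reached more than 4 counts in any Epor/Csf2rb cell. Cd3e, a chain of the T cell receptor complex, had a count in 24 cells (18.3%) against 11.2% of the others. Its change was -1.15 ± 0.54 (adjusted p = 0.289) in the 5 Wildtype sections and 0.41 (adjusted p = 0.67) with all 131 cells summed per slide, so that it had no settled direction. A share with a count was thus similar for a T cell gene, a stem cell gene and a pan-leukocyte gene.

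Among blood lineages, 1 of 13 granulocyte and mast cell genes rose (Mpo), with a median change of 0.57. None of 12 pan-leukocyte, 15 macrophage, 11 lymphoid and 3 megakaryocyte genes passed, with medians of 0.22, 0.21, 0.31 and -0.04. With all cells summed per slide, none of the 13 granulocyte and mast cell genes passed, Mpo included. Their median was then 0.41 beside 0.08 for all genes. Summed over the lists as levels per 1000 counts, pan-leukocyte genes ranged from 8.67 to 12 in the 5 sections against 6.7 to 8.34, granulocyte and mast cell genes from 12.4 to 14.5 against 7.39 to 8.71, and macrophage genes from 9.95 to 15.5 against 9.42 to 10.0. Lymphoid genes ranged from 7.81 to 11.1 against 6.51 to 7.08. The hepatic list, 6 genes of another tissue, was also higher in 5 of 5 sections (4.98 to 9.54 against 4.45 to 4.98). Pooled by hemoglobin, Epor/Csf2rb cells under 5% came to 8.28 per 1000 for pan-leukocyte, 8.56 for macrophage and 9.08 for granulocyte and mast cell genes. At matched hemoglobin no gene of these 3 lists passed, and the median change of the granulocyte and mast cell list was 0.22 under 5% and 0.15 at 5% to under 10%, and that of the macrophage list -0.13 and -0.08, beside -0.15 and -0.10 for all genes. None of 14 endothelial and 7 epithelial genes passed (medians -0.16 and -0.05).

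Of the 7 erythroid genes besides hemoglobin, none passed (median 0.10). Summed, they were higher in Epor/Csf2rb cells in 4 of 5 sections. Pooled, they came to 7.14 per 1000 in Epor/Csf2rb cells under 5% hemoglobin, 10.9 in those at 5% to under 10% and 15.4 in hemoglobin-rich cells. Gpx1, the peroxidase abundant in red cells, was at 2.60 ± 0.95 against 1.61 ± 0.14 per 1000 (0.49 ± 0.26, adjusted p = 0.373). Of 13 cell cycle genes 4 fell: the chromatin protein Hmgb2 (-1.12 ± 0.13), the tubulin regulator Stmn1 (-1.46 ± 0.19), the replication clamp Pcna (-0.80 ± 0.24) and the topoisomerase Top2a (-0.75 ± 0.23). The proliferation marker Mki67 was at 5.51 ± 2.19 against 3.52 ± 0.29 per 1000 (0.42 ± 0.19, adjusted p = 0.279) and passed when library size alone set the scale (adjusted p = 0.0222) and in the 3 sections of slide 1 alone (0.70, adjusted p = 0.0467). On the 2 sections of slide 2 it was at -0.11 (adjusted p = 0.989), and among cells under 5% hemoglobin, summed per slide, at -0.30 (adjusted p = 0.959). Tyms, which makes thymidylate for DNA synthesis, was at 8.09 ± 1.83 against 7.69 ± 1.31. Summed over the list, the 5 sections ranged from 39.8 to 52.9 per 1000 in Epor/Csf2rb cells and from 54.8 to 65.8 in the other cells, with no overlap, and 4 of 13 genes had a change above 0 (median -0.30). Pooled by hemoglobin, the list came to 61.5 per 1000 in Epor/Csf2rb cells under 5% and to 40.7 in those at 5% to under 10%, and at matched hemoglobin none of its genes passed in either range.

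None of 12 Notch pathway genes passed (median -0.57 beside 0.00 for all genes). Nr4a1 was at 0.679 ± 0.484 against 0.285 ± 0.032 per 1000 in the Wildtype sections (1.02 ± 0.54, adjusted p = 0.393) and Nr4a2 at 0.957 ± 0.338 against 0.444 ± 0.073 (0.89 ± 0.44, adjusted p = 0.344). Nr4a3 was at 0.483 ± 0.414 against 0.483 ± 0.055 (adjusted p = 0.914). In all Knockout Epor/Csf2rb cells together, 1 count of Nr4a1, 4 of Nr4a2 and 2 of Nr4a3 were found among 11809 counts. None of the 3 had enough counts for the test between the embryos, so these numbers do not show a loss.

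**Figure D5:**
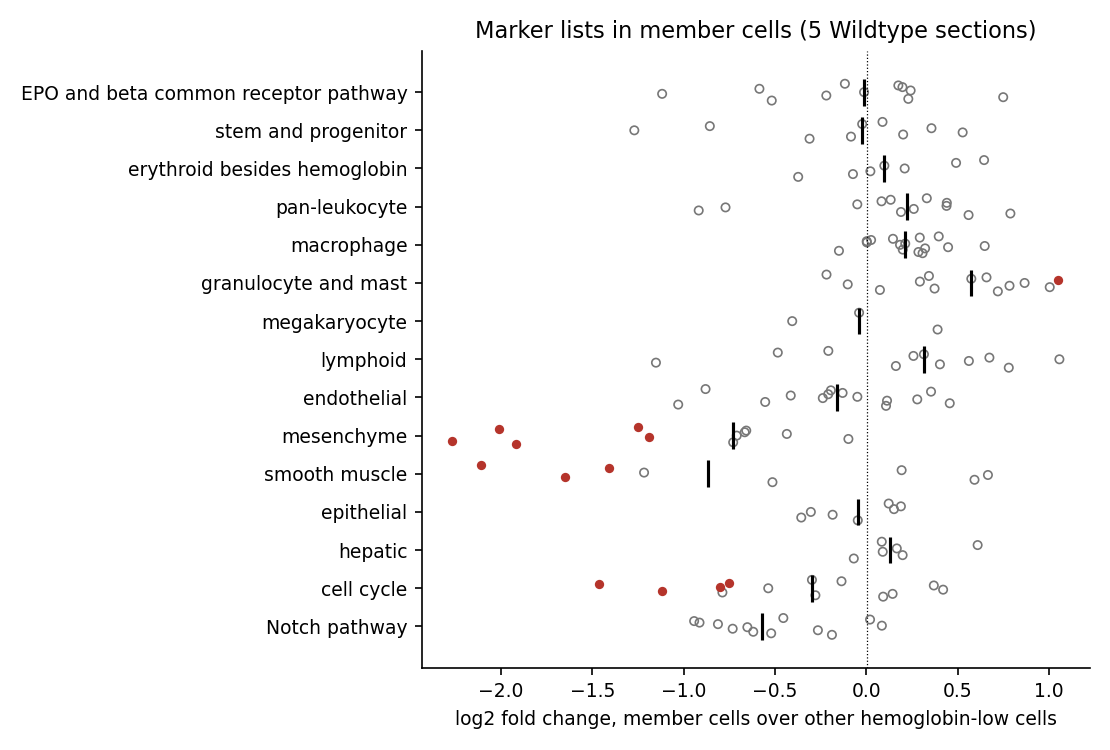
Log2 fold change (x axis) of each gene of 15 lists in Epor/Csf2rb cells over the other hemoglobin-low cells of 5 Wildtype sections; filled points passed at an adjusted p under 0.05, open points did not, bars are list medians and the dotted line is the median of all genes (0.00). Filled points are 5 mesenchyme, 3 smooth muscle and 4 cell cycle genes on the left and Mpo on the right.

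Since hemoglobin split the Epor/Csf2rb cells, their rates were set out by hemoglobin, as a description over pooled cells. Mt2 stood at 0.742 per 1000 (95% Poisson interval 0.395 to 1.27) in Epor/Csf2rb cells under 5% hemoglobin and at 4.12 (3.41 to 4.94) in those at 5% to under 10%. In the other cells of the same hemoglobin ranges it stood at 0.889 and 3.78, and in hemoglobin-rich cells at 9.77. Mt1 went 0.742 and 2.57 in Epor/Csf2rb cells, and 0.668 and 3.19 in the others. The pooled ranges mix the embryos unequally, since 62 of the 69 cells at 5% to under 10% were Wildtype. Within the Wildtype embryo, Mt2 stood at 1.11 (0.506 to 2.10) under 5% and 4.24 (3.48 to 5.11) above it, and Mt1 at 1.23 (0.589 to 2.26) and 2.39 (1.83 to 3.06). Within the Knockout embryo, Mt2 stood at 0.426 (0.116 to 1.09) and 2.88 (1.16 to 5.94), the latter from 7 cells. Both embryos thus had the higher Mt2 rate in the range of more hemoglobin, and the Wildtype intervals of Mt1 overlapped.

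Mki67 likewise stood at 2.63 (1.92 to 3.50) and 6.45 (5.55 to 7.45) in Epor/Csf2rb cells under and above 5% hemoglobin, against 2.81 and 5.08 in the others. Twist1 stood at 5.59 (4.54 to 6.82) under 5%, where the other cells were also at 5.59, and at 0.599 (0.349 to 0.959) at 5% to under 10%, where the others were at 1.57. Serpinh1 stood at 11.8 (10.3 to 13.5) against 14.9 under 5%, and at 1.83 (1.37 to 2.40) against 6.55 at 5% to under 10%. Summed over the mesenchyme list, Epor/Csf2rb cells came to 22.3 per 1000 under 5% hemoglobin and 8.31 above it. The cells under 5% thus had the Twist1 level of other cells in that range, and at 5% to under 10% its difference did not pass the test by slide given below (-1.53 ± 0.48, adjusted p = 0.131).

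When sections were summed per slide so that all 131 cells entered (4 slides), the comparison within each hemoglobin range could be tested. This way of summing was chosen after the number of cells per section was known. Without a split by hemoglobin, 54 of 993 genes passed (5.44%), 8 higher (0.806%) and 46 lower (4.63%), and 46 of the 54 were also among the 60 of the section comparison. Under 5% hemoglobin, no gene was higher by edgeR and 10 were lower (1.01% of 993 genes), with 57 at an unadjusted p under 0.05. These were the ribosomal scaffold Rack1 (-0.98), Calm2 (-0.91), Sod1 (-0.86), the glycolytic enzymes Ldha (-0.85) and Eno1/b (-0.85), Hsp90ab1 (-0.70), Tpt1, the tubulin Tubb5, Igf2 (-0.61) and Serpinh1 (-0.53). All 10 were within 1 log2 unit of no change. Twist1 differed by -0.20 (adjusted p = 0.959) and Mt2 by -0.54 (adjusted p = 0.955).

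At 5% to under 10% hemoglobin, no gene was higher by edgeR and 8 of 958 were lower (0.835%), with 48 at an unadjusted p under 0.05. They were Col3a1 (-3.24), Col1a1 (-2.49), Igf2 (-2.38), Col4a1 (-2.25), Serpinh1 (-2.20), Col4a2 (-1.96), Cald1 (-1.88) and Sparc (-1.76). Mt2 differed by -0.30 and Mt1 by -0.42 (adjusted p = 0.997 for both). Both, which rose in the section comparison, thus had changes below 0 at matched hemoglobin in either range, and neither was called. Aqp3 differed by -0.12 at 5% to under 10% and by 0.85 ± 0.47 under 5% (adjusted p = 0.872), where the size was near that of the section comparison and the call was lost.

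Against hemoglobin-rich cells (10% or more), few genes differed. In the same 5 Wildtype sections, 3 of 838 genes (0.358%) were lower in Epor/Csf2rb cells and none was higher, by edgeR, with 44 at an unadjusted p under 0.05. By DESeq2, 1 was lower and none higher. Those lower were Mt1 (-1.43 ± 0.24, adjusted p = 2.01e-06) and the collagens Col4a1 (-1.48 ± 0.30, adjusted p = 0.000422) and Col4a2 (-1.57, adjusted p = 0.0279). The number lower was 1 without section 6 and 8 without section 7. Igf2 differed by -0.53 ± 0.21 (adjusted p = 0.54), Serpinh1 by -0.40 ± 0.23 and Twist1 by 0.29 ± 0.38.

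With all cells summed per slide, 5 of 989 genes passed (0.506%), 4 lower (0.404%) and 1 higher (0.101%). Mt1 differed by -2.12 and Gpx1 by -1.67 (adjusted p = 0.00155), the progenitor and growth gene Myc and the superoxide dismutase Sod1 were also lower, and the chemokine Cxcl12 was higher (1.39, adjusted p = 0.0199).

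No gene separated Epor-dominant from Csf2rb-dominant cells. Only 4 Wildtype sections held 5 or more of each, and 24 genes had enough counts to be tested. None passed by edgeR or DESeq2, with 4 and 2 at an unadjusted p under 0.05. Mt2 differed by -0.71 ± 0.26 and Tyms by -0.72 ± 0.35, both toward lower values in Epor-dominant cells, and Stmn1 by 0.74 ± 0.28 (adjusted p = 0.256 for each). When all cells were summed per slide, none of 94 genes passed by edgeR, with 6 at an unadjusted p under 0.05. With 62 and 61 cells in all, these counts do not show that the cells were alike.

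Between the embryos, the test fixed for the sections could not be run, since no Knockout section held 10 Epor/Csf2rb cells. Summed per slide, 2 Knockout slides (21 cells each) stood against 2 Wildtype slides (44 and 45 cells). Of 423 genes, 25 passed by edgeR (5.91%), 21 higher in Knockout cells (4.96%) and 4 lower (0.946%), and 7 were higher and none lower by DESeq2. Twist1 stood at 4.33 and 7.13 per 1000 on the Knockout slides and at 1.26 and 1.52 on the Wildtype slides (2.14 ± 0.38, adjusted p = 8.92e-06). Igf2 stood at 12.6 and 15.6 against 2.90 and 5.05 (1.92 ± 0.35, adjusted p = 1.26e-05), and Serpinh1 at 10.2 and 12.8 against 2.79 and 4.55 (1.74 ± 0.37, adjusted p = 0.000383).

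Sparc, Meg3, Tubb5, Cxcl12 and the guidance receptor Epha7 were among the others higher in Knockout cells. Lower were Mt2 (0.865 and 0.995 against 3.07 and 3.98 per 1000, -1.82 ± 0.48, adjusted p = 0.00563), Prf1, which encodes perforin, the MHC class II chain Cd74, and Ifnl2/3, a probe shared by the interferon lambda genes. In Ifnl2/3 the Knockout slides were at 0 and 0.332 per 1000 against 1.31 and 1.83. Of 7 mesenchyme genes tested, 3 were higher and none lower, with a median of 0.75 beside -0.01 for all genes.

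These differences stood beside the unequal hemoglobin of the cells, 35 of 42 under 5% in Knockout and 27 of 89 in Wildtype. Among cells under 5% hemoglobin alone, none of 67 genes passed by edgeR, with 10 at an unadjusted p under 0.05, and Twist1, Igf2 and Serpinh1 differed by 0.58, 0.42 and 0.37. Only 7 Knockout cells lay at 5% to under 10%, too few to compare.

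The change of Epor/Csf2rb cells over the other cells also differed between the embryos, in 4 of 993 genes (0.403%). It was less negative in the Knockout embryo for Meg3 (by 1.58), Igf2 (1.41), Twist1 (1.40) and Serpinh1 (1.24), and none of these passed when only cells under 5% hemoglobin were used (0 of 993, 41 at an unadjusted p under 0.05). In the Knockout embryo alone, no gene differed between Epor/Csf2rb cells and the other cells by edgeR (0 of 993, 68 at an unadjusted p under 0.05), where the Wildtype embryo gave 70 genes (7.05%), 11 higher (1.11%) and 59 lower (5.94%).

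A single cell stood apart in the platelet gene Pf4. The 131 cells held 49 counts of Pf4, and 25 of them came from 1 cell of Wildtype section 9, which had 272 counts in all, 4.04% hemoglobin, 3 counts of Epor and 2 of Csf2rb. The same cell held 18 of the 49 counts of Thbs1, a platelet granule protein, and 6 of Cd9, a membrane protein of megakaryocytes and platelets. Of the other cells, 115 had no Pf4, 13 had 1 or 2 counts, 1 in Knockout section 2 had 4 and 1 in Wildtype section 8 had 3, with 8 counts of Thbs1. This cell was singled out after its values were seen.

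Epor/Csf2rb cells occurred in 39 of 50 fields of view, in 14 of them as a single cell, with up to 14 in 1 field. Fields with such cells had a median of 4.75% hemoglobin-rich cells and fields without them 4.29%.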

How the data were processed

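Transcripts of 10 µm sections were decoded and assigned to segmented cells by the authors with AtoMx. The deposited values were whole-number counts per gene and cell, not normalized; the authors' limits on cells and their work in Seurat came later and were not used here. The labels name fresh freezing in one field and paraffin embedding in another. Groups came from the genotype label.

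Counts of a class of cells were summed per section. Sections with 10 or more Epor/Csf2rb cells (5 or more of each kind for Epor-dominant against Csf2rb-dominant) entered edgeR 4.0.16 (R 4.3.3; robust quasi-likelihood test, TMM, filterByExpr, Benjamini-Hochberg, threshold 0.05), with the section as a block, since both classes came from the same section. The 5 genes of the rule were left out of library sizes and tests, and SEs were derived from the F statistic. The test between embryos was fixed on sections and could be run only on sums per slide. DESeq2 1.42.0, other scalings and limits, thinning to 200 counts and leaving out sections were alternatives.

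Members, lists and tests were chosen with earlier results of these data known. Named were the Nr4a genes, Cd3e, Runx1, Kit and Ptprc, up to 6 genes of each list, and the 10 largest rises and falls that passed with the same sign in each embryo alone (8 for other comparisons). Jak2, Bcl2l1, Hsp90ab1, Calm2, Adgrg3, Krt14, Mt2, Pf4, the genes called within a hemoglobin range and values set beside them were singled out after their values were seen. In simulated counts of the section comparison (993 genes), 100% of 4-fold and 42% of 2-fold rises were called, and 0.126% of unchanged genes. Intervals are at 95%, Wilson for shares and exact Poisson for rates.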

Additional observations from a re-analysis of the deposited data

Results flagged for a closer look

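Each value below was singled out because 1 section lay far from the rest of its group, or because the change in Epor/Csf2rb cells differed between the embryos. Of 39 groups of sections examined for a lone section, 3 had one, and chance gives about 1 in 20. Among the 9 Wildtype sections, the share of Epor/Csf2rb cells was highest in section 3, at 1.71%. In the other hemoglobin-low cells of the 5 Wildtype sections, Igfbp5 was highest in section 1, at 3.46 per 1000 counts, and Mt2 was lowest in section 1, at 1.01 per 1000. By edgeR on sums per slide, the log2 change of Epor/Csf2rb cells over the other cells was higher in the Knockout than in the Wildtype embryo by 1.41 for Igf2, 1.58 for Meg3, 1.24 for Serpinh1 and 1.40 for Twist1, from 2 slides per embryo. The embryos also differed in the hemoglobin of these cells, and among cells under 5% hemoglobin none of these differences passed.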

How the results depend on the processing

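The mean number of Epor/Csf2rb cells per Knockout section (3.23) was 1.31 with 4 or more receptor counts, 1.69 with 12 or more per 1000 and 1.46 after thinning to 200 counts. The Wildtype mean (9.89) was 6.22 with 4 or more receptor counts, 3.33 with 12 or more per 1000, 3 under 5% hemoglobin and 5 after thinning. Over the other hemoglobin-low cells, 7 genes were higher and 53 lower. These numbers were 21 and 34 with library size alone, 15 and 53 with no replicate block (the section), 1 and 19 on slide 2 alone, and 2 to 7 and 37 to 51 when each section was left out in turn. Alternatives chosen after seeing the data used sums per slide and gave 21 and 29 with library size alone, 0 and 10 under 5% hemoglobin, 0 and 8 at 5% to under 10%, 0 and 0 in the Knockout embryo, and 11 and 59 in the Wildtype embryo. Against hemoglobin-rich cells, the number lower (3) was 1 by DESeq2, 0 on slide 2 alone and 1 to 8 when sections were left out, and sums per slide gave 1 higher with either scaling. For Epor-dominant against Csf2rb-dominant cells, 0 to 1 gene was lower when sections were left out (1 without section 6). Between the embryos, 21 higher and 4 lower became 7 and 0 by DESeq2 and 0 and 0 under 5% hemoglobin, and the 4 genes of the difference between embryos became 0 under 5%. Among named genes that had passed, directions turned in the sums per slide. Under 5% hemoglobin, Adgrg3 was at -0.073, Krt14 at -0.099, Mpo at -0.94, Mt1 at -0.074, Mt2 at -0.54 and, between the embryos, Meg3 at -0.0017. At 5% to under 10%, Aqp3 was at -0.12, Mt1 at -0.42 and Mt2 at -0.30. In the Knockout embryo, Adgrg3 was at -0.12, Foxc1 at 0.28, Krt14 at -1.02, Mpo at -0.53 and Mt2 at -0.018. Of the genes that passed and had no alternatives run gene by gene, Jun (0.18), Tgfb2 (0.035) and Epha7 (0.58), which fell in the Wildtype sections, were above 0 there too. Of the other values of named genes that had passed, 414 kept direction and call and 173 lost the call. Of the named genes that had not passed, only 11 were followed through the alternatives. They were Kit, Runx1, Ptprc, Cd3e, Gata2, Nr4a1, Nr4a2, Nr4a3, Gpx1, Mki67 and Tyms. For these 11, 42 of 202 values had the other sign, at least 1 for each gene, and 2 passed (both Mki67). The cause was not tested. Not run, for too few cells per section, were the fits with 4 or more receptor counts, 12 or more per 1000 and under 5% hemoglobin by section, the Knockout sections alone, and every comparison between embryos by section. Depth limits the rest: the 131 cells held 45901 counts of the 993 genes.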
